A study of Aspergillus nidulans and Aspergillus wentii with 48 samples.

Results

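The genes described here encode 5 enzymes that make or oxidise mannitol and the pentose-derived sugar alcohols in *Aspergillus nidulans*. They were picked by identifier from the 10988 genes of the *A. nidulans* count table: *mpdA* (AN5975), *mtdA* (AN7590), *ladA* (AN0942), *xdhA* (AN9064) and the xylose reductase gene AN0423. The rule that picks them uses identifiers only, although the list was drawn up with earlier results of these data known. All 5 matched the RefSeq gene table, which gives their identifiers without symbols, so the gene names are those of the gene list itself.

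Fungi hold mannitol and other sugar alcohols as carbon stores, as sinks for reducing power and as compatible solutes, and glycerol is the main solute that *Aspergillus* hyphae accumulate at high osmolarity. The mannitol branch starts when mannitol-1-phosphate dehydrogenase (MpdA) reduces fructose 6-phosphate to mannitol 1-phosphate, while mannitol 2-dehydrogenase (MtdA) interconverts mannitol and fructose. The pentose branch uses xylose reductase to reduce D-xylose to xylitol, L-arabitol dehydrogenase (LadA) to oxidise L-arabitol to L-xylulose, and xylitol dehydrogenase (XdhA) to oxidise xylitol to D-xylulose.

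RNA was sequenced from 2 strains of *A. nidulans*. THS30 carries *gfdB*, and its genotype is given as *pyrG89*, *AfupyrG*+, *pyroA*+ and *veA*+. In Δ*gfdB* this glycerol 3-phosphate dehydrogenase gene is replaced by *AfupyrG*+, again with *pyrG89*, *pyroA*+ and *veA*+. Submerged cultures in minimal broth were grown for 36 h in the case of THS30 and for 38 h in the case of the mutant. They were then left untreated or exposed for 0.5 h to 2 M sorbitol, to 1 M NaCl, or to the combined NaCl + sorbitol treatment. Each of the 8 groups held 3 biological replicates, which gave 24 libraries. The 2 h difference in growth went with the strain, so age and genotype cannot be told apart. Both strains carry the *pyrG89* allele with the *A. fumigatus pyrG* marker, and each is a single strain background. The *A. wentii* strains used further below are CBS141173 (wild type) and ′c *gfdB*. The latter holds a copy of *A. nidulans gfdB* and the *HygR* selection marker.

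The *A. nidulans* libraries held from 11438978 to 53348830 counted reads (median 20092676.5). Reads of *gfdB* numbered 71 to 5194 in the THS30 libraries and 0 to 2 in the Δ*gfdB* libraries. Replicate 1 of untreated Δ*gfdB* stood apart from its group: its mean correlation with the other two replicates was 0.974 (log2 CPM across genes), against 0.991 to 0.996 for the libraries of the other 7 groups. Comparisons with the untreated Δ*gfdB* group rest on that library. For *mpdA*, *mtdA*, *ladA*, *xdhA* and AN0423, values without it are given beside them. For the other named *A. nidulans* genes no values without it are given.

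Levels are given as RPKM, a read count scaled by gene length and library total. Fold changes, their standard errors (SE) and adjusted p come from edgeR's quasi-likelihood test on the counts, fitted over all 9498 genes with enough reads, and all 5 genes were among these. A gene was called upregulated or downregulated when the adjusted p was below 0.05 and the change exceeded 2-fold. The edgeR scale (TMM) sets a typical gene near 0, whereas RPKM is scaled by library totals alone. On the latter scale the median gene fell by 0.45 (THS30) and 0.47 (Δ*gfdB*) log2 units with NaCl, so RPKM ratios under NaCl are lower than the fitted ones. In the same order of strains, the median change was -0.12 and -0.29 with sorbitol and -0.28 and -0.30 with the combined treatment. RPKM ratios to untreated cultures are thus lower there too, by less than with NaCl. RNA amounts are relative, and fewer cells of a type and less RNA per cell cannot be told apart in such cultures. An exact two-sided permutation test of 3 against 3 libraries cannot give a p below 0.1, and it gave 0.1 for each pair of groups whose RPKM did not overlap.

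*mpdA* was upregulated by each single stressor in both strains, *mtdA* by NaCl in both strains and by sorbitol in THS30, and AN0423 was downregulated by every treatment. In THS30, *mpdA* and *mtdA* were upregulated by sorbitol and by NaCl, where 15.3% and 19% of all tested genes were upregulated. In Δ*gfdB*, *mpdA* was upregulated by sorbitol (15.3% of tested genes) and *mpdA* and *mtdA* by NaCl (18.3%). The combined treatment left no member upregulated over 2-fold in either strain (7.54% of tested genes in THS30, 5.7% in Δ*gfdB*).

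AN0423 was the only member downregulated more than 2-fold in these 6 comparisons with untreated cultures. Of all tested genes, 11.3% (sorbitol), 18.1% (NaCl) and 8.23% (combined) were downregulated in THS30, and 14.1%, 17.5% and 8.09% in Δ*gfdB*. The genes *ladA* and *xdhA* were not called in any of these comparisons. The median log2 change of the 5 members was -0.01 with sorbitol and 0.13 with NaCl in THS30, beside -0.01 and -0.11 for all tested genes.

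**Figure D1:**
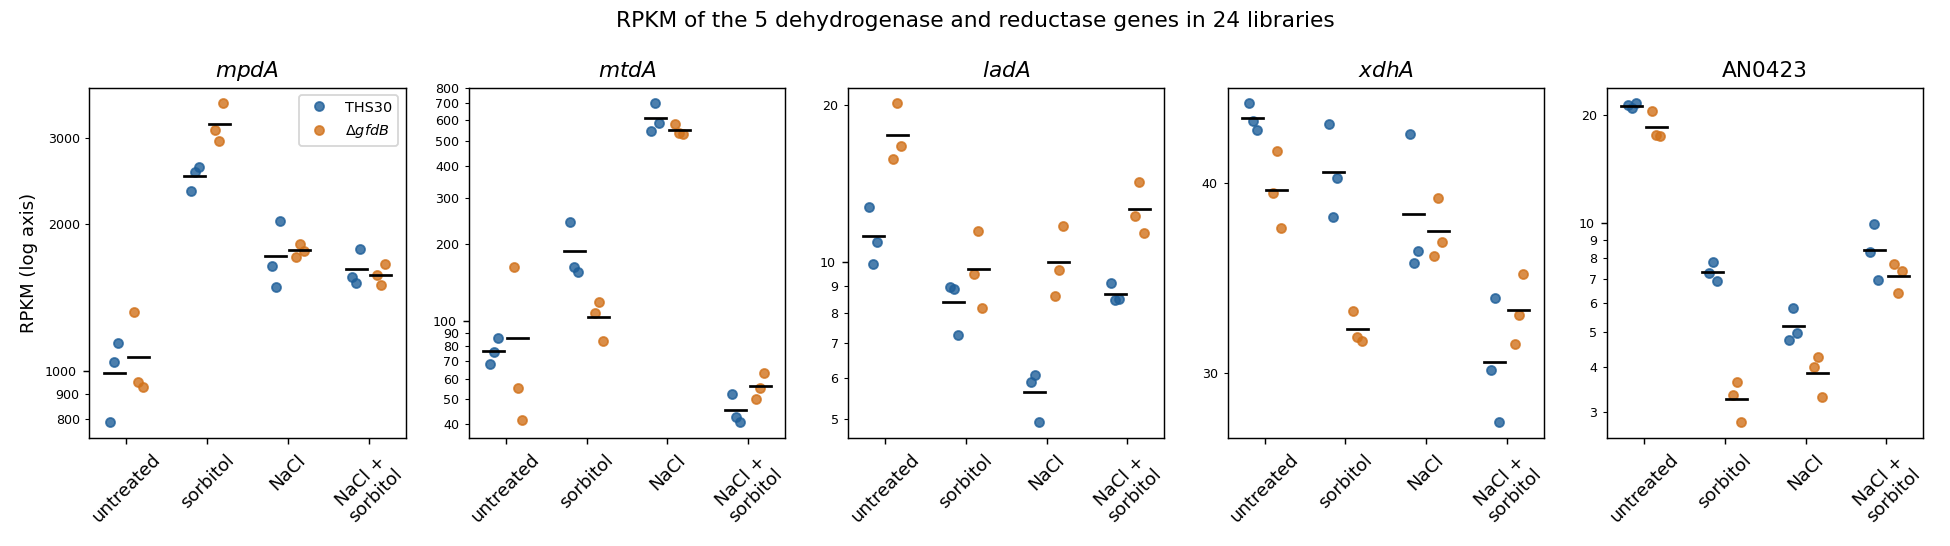
RPKM (log axis, with its own range in each panel) of the 5 genes in each of the 24 libraries, by treatment. Points are single libraries (blue THS30, orange Δ*gfdB*) and black bars are means of 3. The points for *mpdA* lie between 787 and 3536 RPKM, whereas those for AN0423 lie between 2.80 and 21.5 RPKM.

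*mpdA* was by far the most abundant of the members. Its mean over the 24 libraries was 1808 RPKM, which placed it at rank 47 of the 10988 genes, and 99.6% of genes were lower. The mean of *mtdA* was 214.7 RPKM (rank 564), that of *xdhA* 36.9 RPKM, that of *ladA* 10.5 RPKM and that of AN0423 9.36 RPKM. In untreated THS30, *mpdA* took 0.163% of all counted reads, and in sorbitol-treated Δ*gfdB* 0.527%.

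In THS30, *mpdA* stood at 787, 1046 and 1143 RPKM in the untreated libraries. It stood at 2338, 2563 and 2625 RPKM with sorbitol, at 1645, 1488 and 2033 RPKM with NaCl, and at 1562, 1514 and 1782 RPKM with both. Every treated library was thus above every untreated library. The log2 fold change was 1.45 ± 0.15 (SE, edgeR adjusted p 1.4e-08) with sorbitol and 1.13 ± 0.14 (edgeR adjusted p 3.2e-07) with NaCl. With the combined treatment it was 0.92 ± 0.14 (edgeR adjusted p 1.1e-05), an increase that did not reach 2-fold. Leaving out replicate 1 of the untreated group took the NaCl value to 0.98, and leaving out replicate 3 took the combined value to 1.04, so both lie near the 2-fold limit. Sorbitol gave a higher level than the combined treatment (log2 difference of combined minus sorbitol -0.52, edgeR adjusted p 0.0029). NaCl did not pass the test against sorbitol (-0.32, edgeR adjusted p 0.063, and 0.023 without replicate 3 of the NaCl group), nor the combined treatment against NaCl (-0.21, edgeR adjusted p 0.19).

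The same order was measured in Δ*gfdB*. The untreated libraries of that strain held 1326, 952 and 928 RPKM of *mpdA*, the first being the library that stood apart. The values were 3114, 2967 and 3536 RPKM with sorbitol, 1716, 1827 and 1766 RPKM with NaCl, and 1574, 1501 and 1657 RPKM with both. Again no treated library overlapped with an untreated one. *mpdA* rose by 1.83 ± 0.15 (edgeR adjusted p 3.8e-10) with sorbitol, by 1.12 ± 0.14 (edgeR adjusted p 4e-07) with NaCl and by 0.75 ± 0.14 (edgeR adjusted p 0.00015) with both on the log2 scale. Without replicate 1 of the untreated group these values were 1.99, 1.28 and 0.91. In this strain sorbitol exceeded NaCl (NaCl minus sorbitol -0.72, edgeR adjusted p 0.00022), and the combined treatment was lower than NaCl (-0.37, edgeR adjusted p 0.024). The latter difference is weakly held, since the edgeR adjusted p rose to between 0.053 and 0.074 when replicate 2 or 3 of the NaCl group or replicate 1 or 2 of the combined group was left out.

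The size of the NaCl response of *mpdA* depended on the scale. When libraries were scaled by their totals alone, its log2 change was 0.80 in THS30 and 0.73 in Δ*gfdB*, below 2-fold but with adjusted p of 2.5e-05 and 7.6e-05 by the same edgeR test. The scaled median gene is at -0.45 and -0.47 there, so *mpdA* remained above the median gene by a similar distance.

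*mtdA* had the widest range of the members in fold terms. In THS30 it stood at 68.3, 75.8 and 86.1 RPKM untreated, at 243, 162.9 and 155.1 RPKM with sorbitol, at 547, 698 and 588 RPKM with NaCl, and at 52.2, 42.6 and 40.7 RPKM with both. The 4 groups did not overlap, with NaCl highest and the combined treatment lowest. The log2 fold change was 1.40 ± 0.30 (edgeR adjusted p 0.00031) with sorbitol and 3.33 ± 0.32 (edgeR adjusted p 4e-09) with NaCl, a 10.1-fold increase. It was -0.55 ± 0.30 (edgeR adjusted p 0.12) with both stressors, so the combined treatment did not pass this test against untreated cultures. Over the processing settings tried, the change ran from -0.76 to -0.49. The adjusted p of the edgeR, DESeq2 or limma test ran from 0.00088 to 0.23 there. Whether this decrease passes thus depends on the setting. NaCl exceeded sorbitol by 1.94 ± 0.30 (edgeR adjusted p 1.4e-05), and the combined treatment gave a far lower level than NaCl alone (log2 difference -3.88 ± 0.33, edgeR adjusted p 5.6e-10).

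In Δ*gfdB*, *mtdA* stood at 162.7, 55.4 and 41.5 RPKM untreated, at 108, 118.99 and 84.3 RPKM with sorbitol, at 583, 536 and 533 RPKM with NaCl, and at 50.05, 55.2 and 63.3 RPKM with both. The NaCl libraries were above all others, while replicate 1 of the untreated group lay above every sorbitol library. The NaCl response was 3.06 ± 0.32 (edgeR adjusted p 1.4e-08) with replicate 1 of the untreated group and 3.86 ± 0.20 (edgeR adjusted p 4.7e-14) without it, so its order against the 3.33 of THS30 depends on that library. The sorbitol response was 0.51 ± 0.30 (edgeR adjusted p 0.13) with that library and 1.30 ± 0.18 (edgeR adjusted p 1.0e-06) without it, so 1 library decided whether *mtdA* was called. For the combined treatment the value was -0.43 ± 0.30 (edgeR adjusted p 0.23), and 0.37 (edgeR adjusted p 0.085) without that library. Without replicate 3 of the untreated group it was -0.76 (edgeR adjusted p 0.020). The drop from NaCl to the combined treatment did not compare with the untreated group and was -3.50 ± 0.32 (edgeR adjusted p 2.8e-09). Its SE still comes from the spread within all 8 groups, replicate 1 of the untreated group included.

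The makeup of the 5 transcripts shifted accordingly. Of their summed RPKM in THS30, *mtdA* made up 6.75% ± 0.50 (SD, n = 3) untreated, 25.9% ± 4.79 with NaCl and 2.66% ± 0.48 with the combined treatment. In Δ*gfdB* its share was 23.2% ± 1.40 with NaCl and 3.33% ± 0.30 with both. *mpdA* made up 72.03% to 95.5% of the sum in the group means.

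AN0423, which encodes the xylose reductase, fell in each treatment and strain. THS30 libraries held 21.2, 20.9 and 21.5 RPKM untreated, 7.29, 7.80 and 6.90 RPKM with sorbitol, 4.75, 5.82 and 4.96 RPKM with NaCl, and 8.32, 9.99 and 6.94 RPKM with both. The untreated libraries were separate from all others. The log2 fold changes were -1.42 ± 0.12 (sorbitol, edgeR adjusted p 1.4e-09), -1.70 ± 0.13 (NaCl, edgeR adjusted p 6.2e-11) and -1.12 ± 0.12 (combined, edgeR adjusted p 9.9e-08). The combined treatment lowered AN0423 less than NaCl did (combined minus NaCl 0.58, edgeR adjusted p 0.00034).

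In Δ*gfdB* the values of AN0423 were 20.5, 17.6 and 17.5 RPKM untreated, 3.34, 3.62 and 2.80 RPKM with sorbitol, 3.98, 4.24 and 3.29 RPKM with NaCl, and 7.69, 6.39 and 7.38 RPKM with both. Sorbitol gave the lowest group mean there, although its libraries overlapped with those of NaCl. The log2 fold changes were -2.28 ± 0.14 (edgeR adjusted p 5.6e-12), -1.89 ± 0.13 (edgeR adjusted p 3.2e-11) and -1.19 ± 0.13 (edgeR adjusted p 8.6e-08) in the same order of treatments. Without replicate 1 of the untreated group they were -2.22, -1.84 and -1.13. The sorbitol-treated Δ*gfdB* libraries held only 42 to 68 reads of this gene, which limits the precision of that value.

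*ladA*, the L-arabitol dehydrogenase gene, was a gene of middle abundance with small decreases. In THS30 it stood at 12.8, 9.91 and 10.9 RPKM untreated, at 8.96, 8.89 and 7.24 RPKM with sorbitol, at 5.90, 6.07 and 4.94 RPKM with NaCl, and at 9.11, 8.45 and 8.49 RPKM with both. The NaCl libraries were the lowest and did not overlap with any other group. The log2 change was -0.65 ± 0.16 with NaCl (edgeR adjusted p 0.00087), which is under 2-fold. It was -0.31 ± 0.15 with sorbitol (edgeR adjusted p 0.083) and -0.15 ± 0.16 with both (edgeR adjusted p 0.42). Between neighbours in the order of levels (untreated, combined, sorbitol, NaCl) no step passed the test in THS30, although the last did without replicate 3 of the sorbitol group (edgeR adjusted p 0.048). The combined treatment and NaCl, which are not neighbours in that order, did differ (combined minus NaCl 0.50 ± 0.16, edgeR adjusted p 0.0070).

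In Δ*gfdB*, *ladA* stood at 15.8, 20.1 and 16.7 RPKM untreated, at 9.50, 11.5 and 8.16 RPKM with sorbitol, at 8.59, 9.67 and 11.7 RPKM with NaCl, and at 12.3, 14.2 and 11.4 RPKM with both. The untreated libraries were the highest of the strain without overlap. The log2 change was -0.62 ± 0.16 with sorbitol (edgeR adjusted p 0.0013), -0.42 ± 0.15 with NaCl (edgeR adjusted p 0.018) and -0.30 ± 0.15 with both (edgeR adjusted p 0.10). Without replicate 1 of the untreated group the 3 values for *ladA* were -0.72, -0.51 and -0.39, and the last then passed the test (edgeR adjusted p 0.041). The NaCl value no longer passed when replicate 2 of the untreated group (edgeR adjusted p 0.12) or replicate 1 or 2 of the NaCl group (0.12 and 0.061) was left out.

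*xdhA*, the xylitol dehydrogenase gene, was the least variable member: its 24 values lay between 27.8 and 45.1 RPKM. The group means in THS30 were 44.1 ± 0.90 (SD, n = 3), 40.7 ± 2.87, 38.2 ± 4.24 and 30.5 ± 2.90 RPKM in untreated, sorbitol, NaCl and combined cultures. In Δ*gfdB* they were 39.6 ± 2.30, 32.03 ± 0.77, 37.2 ± 1.72 and 33.0 ± 1.75 RPKM. The change of *xdhA* with the combined treatment in THS30 was -0.32 ± 0.09 (edgeR adjusted p 0.0058), the largest in size of its 6 changes. The log2 change with NaCl was 0.13 ± 0.09 in THS30 and 0.29 ± 0.09 in Δ*gfdB* (edgeR adjusted p 0.21 and 0.0080), and 0.27 in the latter strain without replicate 1 of its untreated group, but with library totals alone its sign turned to -0.21 and -0.09, so no direction is given for it under NaCl.

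**Figure D2:**
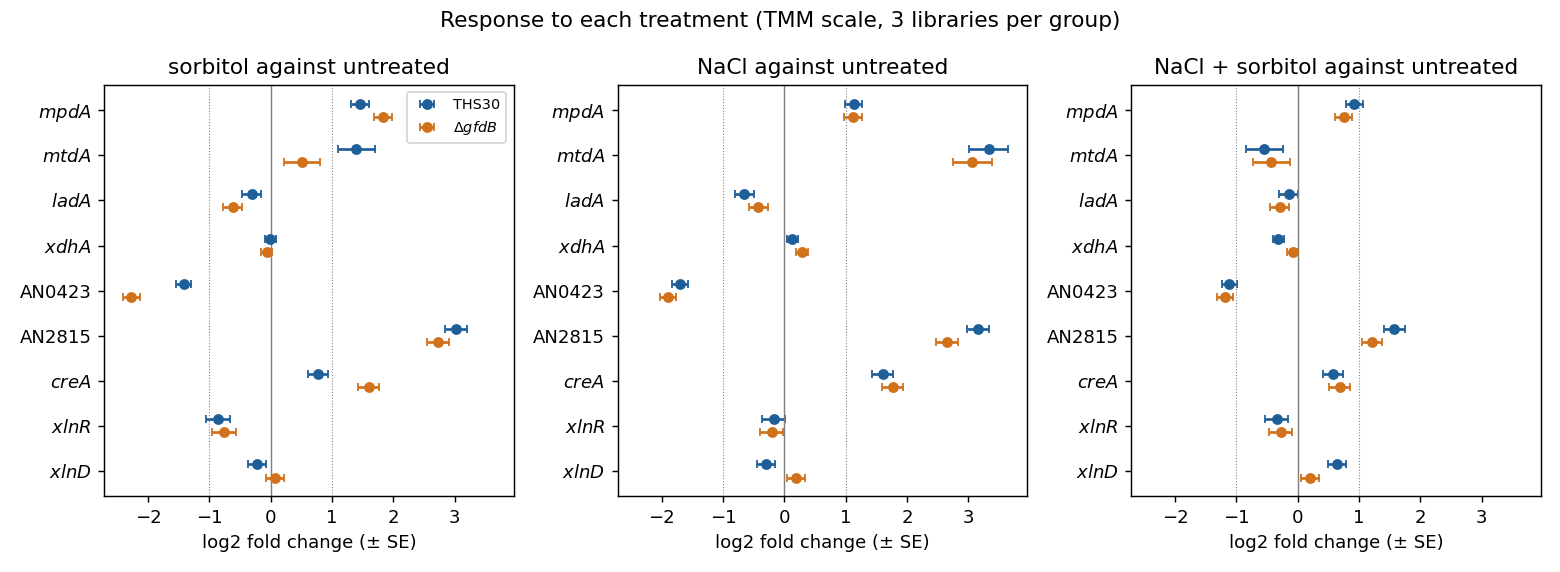
Log2 fold changes against untreated cultures of the same strain (x axis, TMM scale) for the 5 members and for AN2815, *creA*, *xlnR* and *xlnD*, in one panel per treatment. Points are edgeR estimates, bars are ± 1 SE, and dotted lines mark a 2-fold change. *mtdA* reached 3.33 (THS30) and 3.06 (Δ*gfdB*) with NaCl, while with both stressors its points lie at -0.55 and -0.43.

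Additivity was tested for each member. If the stressors acted independently on the log2 scale, the change with the combined treatment would equal the sum of the single changes. For *mtdA* in THS30 that sum was 4.73 and the measured change was -0.55, a difference of -5.28 ± 0.44 (edgeR adjusted p 3.5e-10). In Δ*gfdB* the difference for *mtdA* was -4.00 ± 0.43 (edgeR adjusted p 2.5e-08), and -4.80 without replicate 1 of the untreated group. For *mpdA* it was -1.65 ± 0.20 (edgeR adjusted p 1.5e-07) in THS30 and -2.20 ± 0.20 (edgeR adjusted p 2.0e-09) in Δ*gfdB*, or -2.36 without that library.

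AN0423 deviated in the other direction, since it fell less with both stressors than the sum of its single decreases. The difference was 2.00 ± 0.18 (edgeR adjusted p 8.5e-10) in THS30 and 2.98 ± 0.19 (edgeR adjusted p 5.8e-12) in Δ*gfdB*, or 2.93 without replicate 1 of its untreated group. These 3 of the 5 members were called in this comparison in each strain, beside 55.2% of all tested genes in THS30 and 52.4% in Δ*gfdB*, so such a share is near that of the transcriptome. For *ladA* the difference was 0.81 (edgeR adjusted p 0.0022) and 0.75 (edgeR adjusted p 0.0042), and for *xdhA* -0.44 (edgeR adjusted p 0.0044) and -0.31 (edgeR adjusted p 0.039). Neither gene was called on the TMM scale, whereas *ladA* exceeded 2-fold with library totals alone (1.04 and 1.19). The *xdhA* value in Δ*gfdB* turned to 0.13 with library totals alone, and it missed the test when any one of several libraries was left out (-0.28, edgeR adjusted p 0.063, without replicate 1 of the untreated group). For *ladA* in Δ*gfdB* the value was 0.84 without that library.

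**Figure D3:**
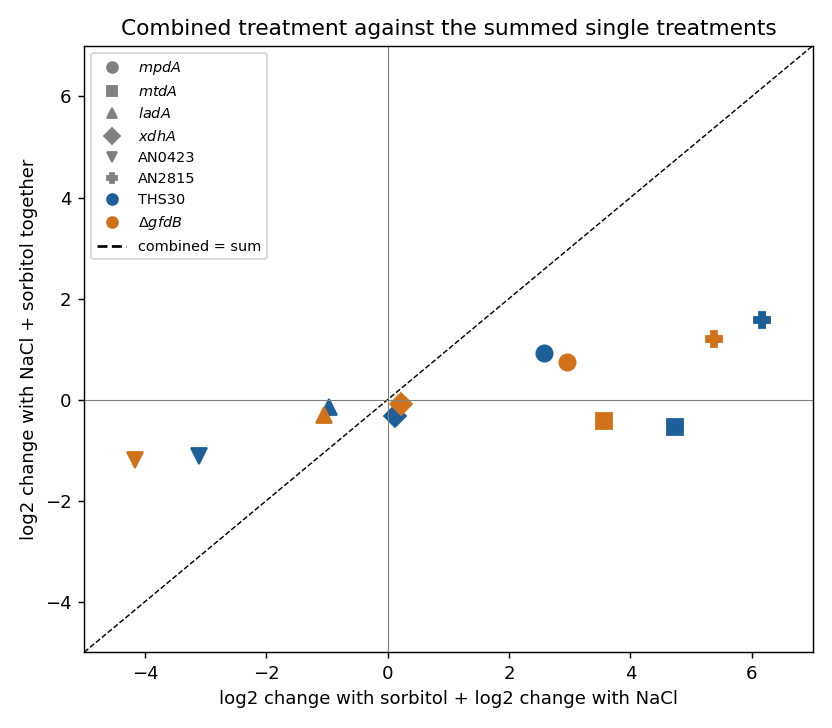
Log2 change with the combined treatment (y axis) against the sum of the log2 changes with sorbitol and with NaCl (x axis), for the 5 members and AN2815 in THS30 (blue) and Δ*gfdB* (orange). The dashed line marks a combined change equal to the sum. *mtdA* lies at a sum of 4.73 and a combined change of -0.55 in THS30, and AN0423 lies above the line in both strains.

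Deletion of *gfdB* was compared with THS30 in each of the 4 conditions. AN0423 was lower in sorbitol-treated Δ*gfdB* than in sorbitol-treated THS30, and *mpdA* was higher, without overlap of libraries in either case. The log2 difference of AN0423 was -1.01 ± 0.14 (edgeR adjusted p 2.3e-05), the only member value called in these 4 comparisons (1.84% of tested genes were called lower in Δ*gfdB* with sorbitol). This value sits at the 2-fold limit and was -0.92 (edgeR adjusted p 0.00053) without replicate 3 of the sorbitol-treated Δ*gfdB* group and -0.97 (edgeR adjusted p 0.00025) without replicate 2 of the sorbitol-treated THS30 group. The difference of *mpdA* was 0.53 ± 0.14 (edgeR adjusted p 0.0061), a 1.45-fold higher level, or 1.28-fold by mean RPKM. Of the 9498 tested genes, 1691 were higher in Δ*gfdB* with sorbitol at an edgeR adjusted p below 0.05.

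The strain difference of AN0423 was not the same in all conditions. It was -0.15 (edgeR adjusted p 0.42) untreated, or -0.21 without the library that stood apart, -0.35 (edgeR adjusted p 0.094) with NaCl and -0.22 (edgeR adjusted p 0.28) with both. The sorbitol response itself differed between the strains by -0.86 ± 0.18 (interaction term, edgeR adjusted p 0.0092), and by -0.80 (edgeR adjusted p 0.014) without the untreated library that stood apart. Of all tested genes, 8.03% passed the test for this interaction at any fold. No other interaction of a member with sorbitol, NaCl or both passed the test in the fit of all libraries. For *mpdA* with sorbitol it was 0.38 ± 0.20 (edgeR adjusted p 0.23), and 0.55 (edgeR adjusted p 0.073) without that library. For *mtdA* the interaction with sorbitol was -0.89 ± 0.42 (edgeR adjusted p 0.18), and it ran from -1.21 (edgeR adjusted p 0.033) without replicate 3 of untreated Δ*gfdB* to -0.09 (edgeR adjusted p 0.86) without replicate 1. The *mtdA* interaction with both stressors was 0.12 (edgeR adjusted p 0.93), and 0.92 (edgeR adjusted p 0.025) without that replicate 1.

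*ladA* was higher in Δ*gfdB* than in THS30 by 0.70 ± 0.15 (edgeR adjusted p 0.0037) untreated, by 0.93 ± 0.16 (edgeR adjusted p 0.00047) with NaCl and by 0.55 ± 0.16 (edgeR adjusted p 0.024) with both on the log2 scale. With sorbitol the value was 0.39 ± 0.16 (edgeR adjusted p 0.059), and it passed the test without replicate 3 of sorbitol-treated Δ*gfdB* (0.48, edgeR adjusted p 0.048). The *ladA* difference with both stressors missed the test without replicate 2 or 3 of THS30 or replicate 1 or 2 of Δ*gfdB* under that treatment (0.45 to 0.58, edgeR adjusted p 0.052 to 0.14). These are 1.62-fold, 1.90-fold, 1.47-fold and 1.31-fold levels, none beyond 2-fold. Of all tested genes, 9.04% were higher in Δ*gfdB* at an adjusted p below 0.05 in untreated cultures, 9.85% with NaCl and 5.58% with both. In these 3 conditions the *ladA* libraries of the strains did not overlap, and leaving out replicate 1 of untreated Δ*gfdB* gave 0.79 for untreated cultures. Leaving out replicate 1 of NaCl-treated Δ*gfdB* raised the NaCl value to 1.05, past 2-fold.

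For *mtdA* and *xdhA* no strain difference passed the test with all libraries. The *mtdA* difference in untreated cultures was 0.21 ± 0.30 (edgeR adjusted p 0.68) and turned to -0.59 ± 0.18 (edgeR adjusted p 0.019) without replicate 1 of Δ*gfdB*. With sorbitol *mtdA* was 0.68 log2 units below THS30 (Δ*gfdB* minus THS30 -0.68 ± 0.30, edgeR adjusted p 0.077), although the libraries did not overlap. That SE includes the wide spread of untreated Δ*gfdB*, since all groups share the fit.

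**Figure D4:**
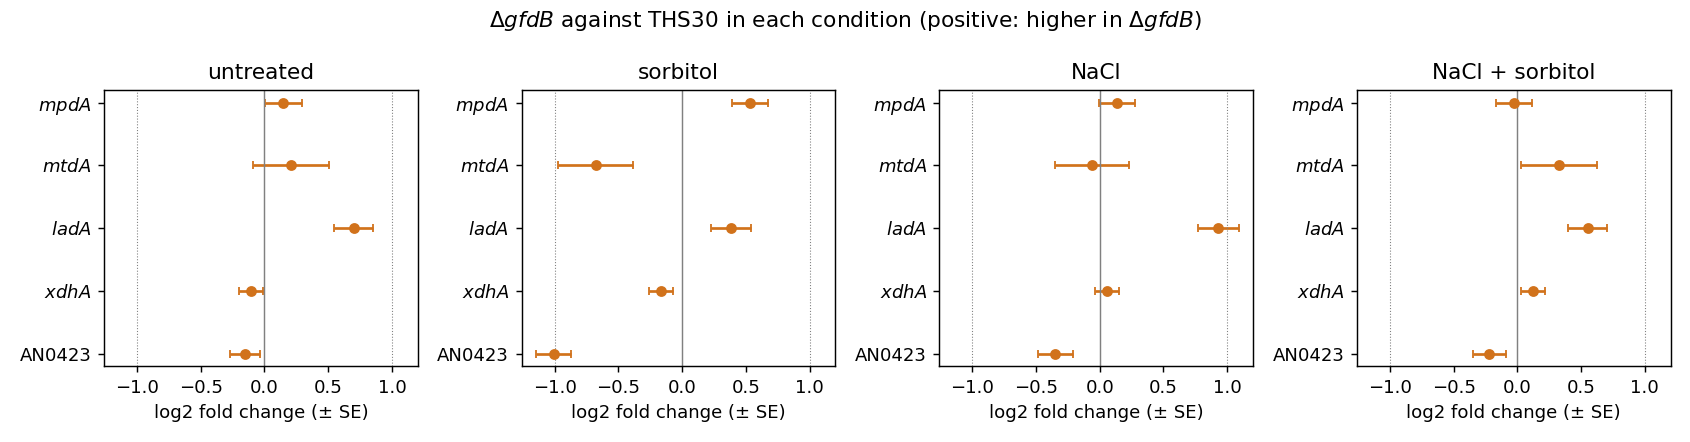
Log2 difference of Δ*gfdB* minus THS30 (x axis, TMM scale) for the 5 members in each condition. Points are edgeR estimates from 3 libraries per group, bars are ± 1 SE and dotted lines mark a 2-fold difference. *ladA* lies to the right of 0 in all 4 panels (0.39 to 0.93) and AN0423 reaches -1.01 with sorbitol.

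Of the 14 neighbouring genes listed for the hexose, pentose and pentose phosphate steps, their regulators and the xylanolytic enzymes, the RefSeq table paired 3 with their symbol, and only these are given, with AN2815. AN2815, described in the study as a putative mannitol 2-dehydrogenase, was upregulated in all 6 comparisons with untreated cultures. Its group means in THS30 were 29.6 ± 3.52 (SD, n = 3), 223.5 ± 25.2, 209 ± 28.1 and 75.8 ± 12.3 RPKM in untreated, sorbitol, NaCl and combined cultures. The log2 fold changes of AN2815 in THS30 were 3.02 (sorbitol), 3.15 (NaCl) and 1.57 (combined). In Δ*gfdB* they were 2.72, 2.65 and 1.21, and over the 6 comparisons the edgeR adjusted p ran from 8.7e-13 to 3.3e-06. Unlike *mtdA*, it was thus still above the untreated level with both stressors.

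*creA*, the carbon catabolite repressor gene, was upregulated by NaCl in both strains (1.60 and 1.77, edgeR adjusted p 2.1e-08 and 5.2e-09). With sorbitol it was called in Δ*gfdB* (1.59, edgeR adjusted p 3.4e-08) and was below 2-fold in THS30 (0.77, edgeR adjusted p 0.00035). The difference between these sorbitol responses was 0.82 ± 0.24 (interaction term, edgeR adjusted p 0.038), the sign opposite to that of AN0423. Of all tested genes 8.03% passed this interaction at any fold, and a link between the 2 genes was not tested. The untreated Δ*gfdB* libraries held 53.3, 91.96 and 87.7 RPKM of *creA*, and the low first value is from the library that stood apart. That low value raises the Δ*gfdB* responses of *creA*. It was not tested whether these responses and the *creA* interaction pass without that library. *xlnR*, which encodes the activator of xylanolytic genes, was lower with sorbitol by -0.86 (edgeR adjusted p 0.00046) in THS30 and by -0.77 (edgeR adjusted p 0.0015) in Δ*gfdB*, neither over 2-fold with all libraries. Its untreated Δ*gfdB* libraries held 7.85, 13.4 and 13.3 RPKM, again with the library that stood apart first. Whether the Δ*gfdB* decrease of *xlnR* stays below 2-fold without that library was not tested. *xlnD*, a beta-xylosidase gene, was not called in any comparison with untreated cultures.

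Glycerol metabolism genes of the study's own list gave a reference for the mannitol branch. Of its 10 genes 9 were tested. In THS30, 5 were upregulated by sorbitol, 6 by NaCl and 1 by both, with list medians of 1.46, 1.36 and 0.15 log2 units beside -0.01, -0.11 and -0.06 for all tested genes. The shares of all tested genes upregulated there were 15.3%, 19% and 7.54%. None of the list was downregulated in these 3 comparisons, beside 11.3%, 18.1% and 8.23% of all tested genes. The study compiled this list after earlier work on glycerol metabolism, and *gfdB* is one of its genes.

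The genes whose profiles were most like that of each member were ranked by Pearson's r of log2 CPM (reads scaled by the library total, TMM) over the 24 libraries. For *mpdA* they were AN1097 (r = 0.987), AN8718 (0.975) and AN3761 (0.967). For *mtdA* they were AN0819 (r = 0.992), AN11161 (0.991) and AN10683 (0.990), and 595 tested genes exceeded an r of 0.9. For AN0423 they were AN5283 (r = 0.981), AN3038 (0.980) and AN11082 (0.978). *ladA* had fewer close profiles, with AN1573 (r = 0.935), AN9021 (0.932) and AN3434 (0.910) as the first 3 and 4 genes above 0.9. For *xdhA* the first was *rpnL* (AN3019, r = 0.899), followed by AN6840 (0.866) and AN6922 (0.865), and no gene exceeded 0.9. Among the members, *mpdA* and AN0423 ran opposite (r = -0.925), and the r of *mtdA* and *xdhA* was 0.750. The latter was computed on the TMM scale alone, and the sign of the *xdhA* change with NaCl depended on the scale. No shared direction is therefore given for that pair. All these r values describe libraries that share groups and are given without a test.

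*A. wentii*, an osmophilic species, was sequenced in the same design at 65 h of growth, as CBS141173 and as ′c *gfdB*, which carries a copy of *A. nidulans gfdB* under its own promoter. The study describes ASPWEDRAFT_117545 as mannitol-1-phosphate 5-dehydrogenase, ASPWEDRAFT_105168 as mannitol 2-dehydrogenase and ASPWEDRAFT_184430 as D-xylose reductase. ASPWEDRAFT_117545, the counterpart of MpdA by its name, had group means of 459 to 983 RPKM and no call in the 6 comparisons with untreated cultures (log2 changes from -0.66 to 0.38, edgeR adjusted p from 0.19 to 0.96). Its ′c *gfdB* libraries with NaCl were far apart, at 1561, 278 and 461 RPKM, and without the first the log2 change was -0.90 (edgeR adjusted p 0.025) in place of -0.03.

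ASPWEDRAFT_105168 stood at 209, 191 and 207 RPKM in untreated CBS141173, at 457, 240 and 340 RPKM with NaCl, and at 63.3, 73.1 and 97.5 RPKM with both. The combined treatment gave the lowest values without overlap. It was downregulated by the combined treatment (-1.37 ± 0.32, edgeR adjusted p 0.0034, where 8.61% of 11094 tested genes were called lower). With NaCl the value was 0.72 ± 0.32 (edgeR adjusted p 0.061). In ′c *gfdB* it was upregulated by NaCl (1.55 ± 0.32, edgeR adjusted p 0.00066, where 19.4% of tested genes were called higher), and the value was 0.97 (edgeR adjusted p 0.0085) without replicate 3 of the NaCl-treated group. With both stressors it was -0.97 ± 0.32 (edgeR adjusted p 0.023) in that strain, and it passed 2-fold without replicate 1 of the untreated group (-1.17, edgeR adjusted p 0.016) or without replicate 2 of the combined group (-1.07, edgeR adjusted p 0.038). ASPWEDRAFT_184430 had 0 to 10 reads per library and was not tested. The species were fitted separately and no difference between them was tested.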

How the data were processed

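RNA-seq of 48 libraries (24 per species, 3 per group) was analysed. The authors mapped reads with HISAT2 2.1.0 to FungiDB genomes and counted them per gene with featureCounts, so the deposited counts are whole raw reads per gene. The deposited RPKM values were computed by the authors with edgeR from these counts, and recomputation from counts and gene lengths gave them back within a relative difference of 5.3e-15. Strand and multi-mapping settings are not given in the sources used here, so reads of overlapping genes cannot be assigned with certainty. Samples were grouped by their titles. The genotype tag of 11 Δ*gfdB* libraries names *sodB*, and *gfdB* reads matched the titles. The series design text states the sorbitol and NaCl concentrations the other way round from the treatment protocol and the paper's methods, which were followed here. Total counts ran from 11438978 to 53348830 in *A. nidulans* and from 11758085 to 32274107 in *A. wentii*. No libraries were identical.

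Counts were fitted with edgeR 4.0.16 (TMM, filterByExpr, estimateDisp, glmQLFit, glmQLFTest; R 4.3.3), in 1 fit per species over its 8 groups, with Benjamini-Hochberg adjustment over all genes tested in a comparison (9498 in *A. nidulans*, 11094 in *A. wentii*). Standard errors were taken from the F statistic as the absolute log2 fold change over its root. Calls needed an adjusted p below 0.05 and a change over 2-fold. The fit was tested on simulated data. Alternatives were DESeq2 1.42.0, RLE factors, library totals alone, no filter, only the groups compared, the replicate number as a block, limma 3.58.1 on log2(RPKM + 1) and log2(RPKM + 0.1), and leaving out each library.

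The rule for named genes was: the 5 members, the neighbouring genes whose symbol the reference table pairs with the listed identifier, AN2815, the study's glycerol list, and the 3 tested genes most like each member by Pearson's r (log2 CPM, prior count of 2). The members and lists were chosen with earlier results of these data known. The RefSeq table (assembly ASM1142v1) matched 10029 of 10988 identifiers, and 11 listed genes without a symbol in it were not used here. Sequences and coordinates are not used here.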

Additional observations from a re-analysis of the deposited data

Results flagged for a closer look

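The sorbitol response of the xylose reductase gene AN0423 differed between the strains. Its interaction term was -0.86 log2 units (SE 0.18, edgeR quasi-likelihood adjusted p 0.0092), since AN0423 fell by 2.28 on the log2 scale in Δ*gfdB* and by 1.42 in THS30. Leaving out replicate 1 of untreated Δ*gfdB* gave -0.80 (edgeR adjusted p 0.014). Of all tested genes, 8.03% passed the test for this interaction at any fold. The sorbitol-treated Δ*gfdB* libraries held only 42 to 68 reads of AN0423. In each strain all 3 treated libraries were below all 3 untreated libraries, which concerns each response and not their difference. Single genes were not screened for outlying libraries, since groups of 3 are too small for such a screen.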

How the results depend on the processing

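Of 1546 recomputed values for the members, the *A. wentii* genes and the counts of members called, 1479 kept their direction and their side of the threshold. For a gene that threshold was the call, so a shift of the adjusted p alone, below 2-fold, was not counted. With library totals alone, limma on log2(RPKM + 1) and limma on log2(RPKM + 0.1), in that order, *mpdA* with NaCl was no longer over 2-fold (0.80, 0.80 and 0.80 for THS30, then 0.73, 0.75 and 0.75 for Δ*gfdB*). Under the same 3 settings *xdhA* changed sign with NaCl (-0.21, -0.21 and -0.21 in THS30, then -0.092, -0.088 and -0.090 in Δ*gfdB*), in the strain difference with NaCl (-0.039, -0.033 and -0.034) and in the departure from additivity in Δ*gfdB* (0.13, 0.13 and 0.13). With the totals and pseudocount of 0.1 the *ladA* departure from additivity passed 2-fold in both strains (1.04 and 1.03 in THS30, then 1.19 and 1.19 in Δ*gfdB*, where a pseudocount of 1 gave 1.11). With DESeq2, RLE factors and only the groups compared, *xdhA* with sorbitol in THS30 was 0.024, 0.027 and 0.0094, and the *mpdA* strain difference with both stressors was 0.0024, 0.0011 and 0.0022, in place of values just below 0. With limma the *mtdA* strain difference in untreated cultures was -0.080 (pseudocount 1) and -0.084 (pseudocount 0.1). The AN0423 strain difference with sorbitol was -0.996 with DESeq2, -0.99 with RLE factors and -0.97 with limma on log2(RPKM + 1), just under 2-fold. ASPWEDRAFT_117545 in ′c *gfdB* with NaCl was 0.081 with library totals alone, and ASPWEDRAFT_105168 with both stressors there was -1.09, past 2-fold. The cause of these shifts was not tested, beyond the change of the median gene: over all genes, library totals alone gave 1345 genes up and 2695 down with NaCl in THS30, against 1808 and 1717 with TMM. In Δ*gfdB* with NaCl the numbers were 1204 and 2730 against 1742 and 1665. With sorbitol these numbers were 1287 and 1317 against 1455 and 1069 for THS30, then 1096 and 2020 against 1456 and 1341 for Δ*gfdB*. With both stressors they were 469 and 1300 against 716 and 782, and 381 and 1253 against 541 and 768.

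When libraries were left out in turn, the values that crossed 0 or a call limit (2-fold for responses and strain differences) ran as follows. In THS30, *mpdA* ran from 0.98 to 1.25 with NaCl and from 0.78 to 1.04 with both stressors, which brought the members called there from 1 to 2. *xdhA* ran from -0.065 to 0.051 with sorbitol in THS30 and from -0.11 to 0.040 in Δ*gfdB*. *mtdA* in Δ*gfdB* ran from 0.18 to 1.30 with sorbitol and from -0.76 to 0.37 with both. The strain difference ran from -0.014 to 0.27 (*mpdA*) and from -0.59 to 0.54 (*mtdA*) in untreated cultures, from -0.13 to 0.063 for *mtdA* with NaCl, from -0.078 to 0.061 for *mpdA* with both, from -1.04 to -0.92 for AN0423 with sorbitol and from 0.75 to 1.05 for *ladA* with NaCl. The interaction with NaCl ran from -0.13 to 0.15 (*mpdA*) and from -0.59 to 0.53 (*mtdA*), that with both from -0.21 to 0.92 (*mtdA*) and from -0.18 to 0.067 (AN0423), and that with sorbitol from -0.12 to 0.0067 (*xdhA*) and from -1.21 to -0.088 (*mtdA*). In ′c *gfdB* with NaCl, ASPWEDRAFT_117545 ran from -0.90 to 0.35 and ASPWEDRAFT_105168 from 0.97 to 1.89, and with both stressors the latter ran from -1.17 to -0.83.

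With the replicate number as a replicate block, *mpdA* with sorbitol in THS30 was 1.45 and *mtdA* with NaCl 3.33, and no call of a member against untreated cultures changed. Same-numbered libraries did not deviate together on average (mean r 0.011 over 84 pairs, from -0.27 to 0.30), so no shared effect of the replicate number was seen. Whether same-numbered cultures were handled together cannot be told from this.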

Other observations

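The THS30 profile of *mtdA* was set beside that of *gfdB*, a comparison chosen after the values were seen. *gfdB* (AN6792) stood at 3.75 ± 0.03 (SD, n = 3), 55.2 ± 13.2, 160.2 ± 20.7 and 3.53 ± 1.70 RPKM in untreated, sorbitol, NaCl and combined cultures of THS30, and like *mtdA* it was highest with NaCl and second with sorbitol. That order is not particular to this pair. By group mean RPKM in THS30, AN9168, AN5589, AN1396 and AN1274 of the glycerol list shared it, as did *creA*. AN2864 and AN1216 were highest with sorbitol, while AN0351 and AN7193 were highest with NaCl and second in untreated cultures. Over the 24 libraries 595 tested genes had an r above 0.9 with *mtdA*. The combined libraries of *gfdB* (5.48, 2.73 and 2.38 RPKM) lay on both sides of the untreated ones (log2 change 0.15, edgeR adjusted p 0.65), whereas those of *mtdA* lay below theirs. The combined treatment minus NaCl difference of *mtdA* in Δ*gfdB*, where *gfdB* is absent, was -3.50 ± 0.32 (edgeR adjusted p 2.8e-09), beside -3.88 ± 0.33 in THS30.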
